A study of Triticum turgidum with 12 samples.

Results

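The response of wild-type durum wheat flag leaves to water stress was taken from 6 of the 12 Affymetrix Wheat Genome Arrays of the study, chosen by their titles: the 3 arrays of cv. Borgia under drought and the 3 of cv. Borgia under control watering. Stressed plants were grown in a glasshouse with watering cut back so that the pots stayed at 1/3 of field capacity, and control plants were kept at field capacity throughout. The methods give booting (Zadoks stage 45) as the start of reduced watering and, in the next sentence, anthesis. Flag leaves were collected at anthesis, and each of the 3 biological replicates of a group pooled 5 plants of a split plot whose main plots were the watering treatments. The other 6 arrays hold the pale-green mutant MD-597 of Borgia under the same treatments, 3 arrays each, and served for the estimate of the spread and for one comparison of responses. How the replicates of the arrays relate to the plots is not given in the sources used here, so p-values measure the spread between these samples.

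Flag leaves supply most of the sugar that fills the wheat grain, and a leaf that loses water closes its stomata under the hormone abscisic acid (ABA) and gathers solutes such as proline and sugars that hold water in the cell. Dehydrins and other late embryogenesis abundant (LEA) proteins protect membranes and proteins in drying tissue, and plasma membrane aquaporins are channels that let water pass between cells. Jasmonic acid and ethylene, hormones of wounding, defense and senescence, are made from membrane lipids and from methionine.

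The deposited values were MAS5 signals on a linear scale, analysed as log2 values. A probe set (a group of short probes for one transcript) was kept when every replicate of some group among the 4 had it above the 60th percentile of all signals on that array, which left 24590 of the 61179 that are not controls. A probe set was said to rise or fall when limma's moderated test gave a Benjamini-Hochberg adjusted p under 0.05 over all kept probe sets and the difference was at least 2-fold. Differences below are log2 values of water stress minus control with the standard error (SE) of the fit, signals are linear and given for replicates 1, 2 and 3 in that order, and probe set names carry _ in place of the dots on the array. The SE takes in the spread of all 4 groups, so it can be wider than the wild-type arrays alone would give. Fewer cells of a type and less RNA per cell cannot be told apart in whole leaves, and levels of different probe sets are not compared.

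The stress and control arrays stood apart, and stress replicate 2 lay farthest from the controls. On the first principal component of the kept probe sets, which held 62.6% of the variance of the 6 arrays, the stress arrays had scores of 40.2, 65.9 and 51.8 and the control arrays of -51.1, -55.6 and -51.2. The second component (13.7%) set stress replicate 2, at 45.7, against stress replicates 1 and 3, at -31.3 and -24.2. The median SD between replicates was 0.20 on the log2 scale under stress and 0.15 under control. Spiked poly-A transcripts, added to follow labeling, had mean log2 signals of 8.88, 9.28 and 9.09 on the stress arrays and 8.67, 8.25 and 8.23 on the control arrays (two-sided exact permutation p = 0.1, the smallest that 3 against 3 arrays allow, adjusted p = 0.36 over 9 control measures). The 3' to 5' signal ratio of the spike dap was 5.94, 3.99 and 3.71 on the stress arrays and 8.27, 6.56 and 7.77 on the control arrays (exact permutation p = 0.1, adjusted p = 0.36). The poly-A and dap measures did not overlap between treatments. Of the 3' to 5' ratios of 6 endogenous transcripts, those of G6PDH, sucrose synthase and EF1a each had an exact permutation p of 0.2. They did not move one way: the log2 difference was 0.65 for G6PDH, 1.36 for sucrose synthase and -2.20 for EF1a. The EF1a ratio was 0.79, 0.0352 and 0.174 on the stress arrays and 0.646, 0.849 and 0.86 on the control arrays, lowest in stress replicate 2. The GAPDH ratio was lowest there too, with 0.615, 0.03 and 0.325 under stress and 0.113, 0.257 and 0.148 under control. The G6PDH and sucrose synthase ratios were highest in stress replicate 2. The actin ratio was highest in control replicate 2 (6.33), and the ubiquitin ratio lay between 0.365 and 0.445 on the 6 arrays. The part of these measures in the results below was not tested.

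Water stress changed 1787 kept probe sets in the wild-type, 7.27% of those tested. Of these 756 rose (3.07%) and 1031 fell (4.19%). Changes of at least 4-fold were seen for 202 that rose and 251 that fell, and changes of at least 16-fold for 39 that rose and 20 that fell. The median difference was 1.44 among those that rose, -1.49 among those that fell and 0.01 over all kept probe sets. The stress and control arrays did not overlap for 1769 of the 1787. Over all kept probe sets the share without overlap was 43.1%, with 21.9% where stress lay above control and 21.2% where it lay below. In 272 of the changed probe sets the lower group lay below the median signal of its arrays (50.5 to 58.6), near the floor of the measurement, so that the size of those changes is not firm. The count depends on the test. The methods' t-test (Welch), run here on the log2 MAS5 signals, called 213 after adjustment (117 rose, 96 fell). With no fold threshold limma called 5591 (2865 rose, 2726 fell), so the excess of falls is not found with either. The study ran that t-test on values of another normalization (RMA) and with another filter, so 213 is not the study's count.

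**Figure D1:**
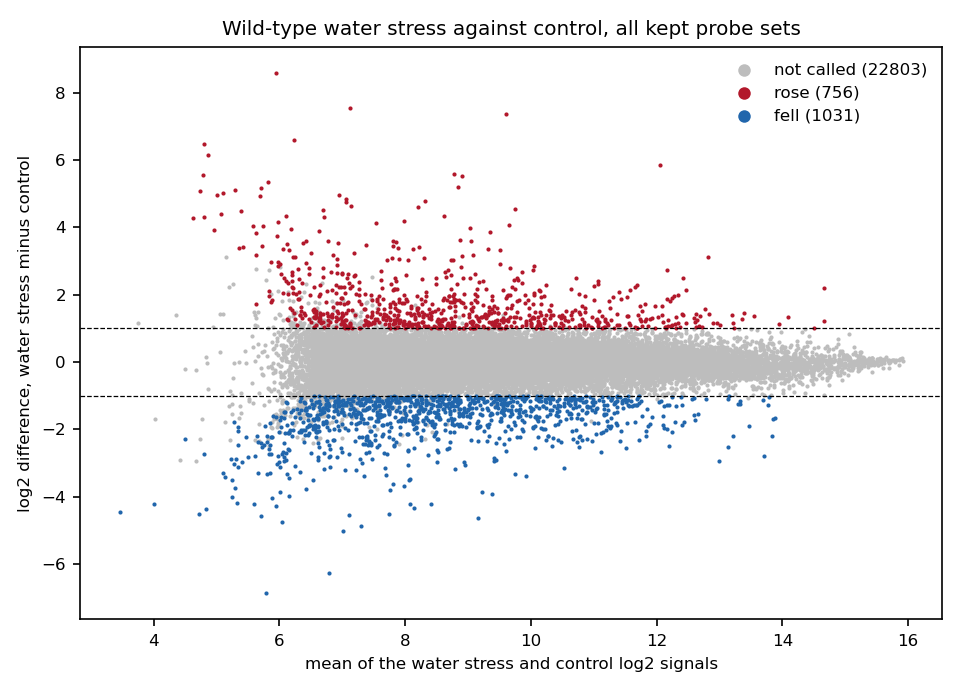
Log2 difference of wild-type water stress minus control (vertical axis) against the mean of the log2 signals of both groups (horizontal axis) for the 24590 kept probe sets. Red points rose (756), blue points fell (1031), grey points were not called, and dashed lines mark 2-fold; the widest differences lie at low and middle signals.

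The 2 probe sets with the widest rise and the 2 with the widest fall carry no gene name in the sources used here. Ta_27369_2_S1_at had signals of 456, 1905 and 2048 on the stress arrays and 4.5, 11.8 and 0.6 on the control arrays. TaAffx_16937_1_A1_at had 732, 2415 and 3930 on the stress arrays and 8.3, 3.1 and 41.7 on the control arrays. All control signals of both lay below the median of their arrays, and with signals under that median raised to it the rises were at least 22.5-fold and 35.4-fold (adjusted p = 0.000167 and 2.97e-05). Ta_22693_2_A1_at had 18.6, 2.0 and 3.6 on the stress arrays and 205, 1182 and 854 on the control arrays. Ta_24715_1_S1_at had 63.4, 4.4 and 7.1 on the stress arrays and 953, 1213 and 770 on the control arrays. These falls were at least 10.8-fold and 16.3-fold by the same rule (adjusted p = 0.00087 and 7.16e-05), and no stress array of either reached a control array.

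Most of the changed probe sets, 1667 of 1787, have no gene name here, and the named biology rests on 73 that rose and 47 that fell. Names come from the study's own tables, which list 207 probe sets, 204 of them kept. The study chose those probe sets on these same arrays, many for changing under stress in one or both genotypes, so their counts are no independent evidence of direction: 73 rose and 49 fell, 59.8% against 7.27% of all kept probe sets. They are described below as 18 lists by function, with the median difference of each beside that of 0.01 over all kept probe sets. By the methods' t-test on these MAS5 signals 18 of the study's probe sets were called after adjustment (13 rose, 5 fell). None of them was on the ABA, glyoxylate, jasmonic acid, photosynthesis, aquaporin, raffinose and starch lists.

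**Figure D2:**
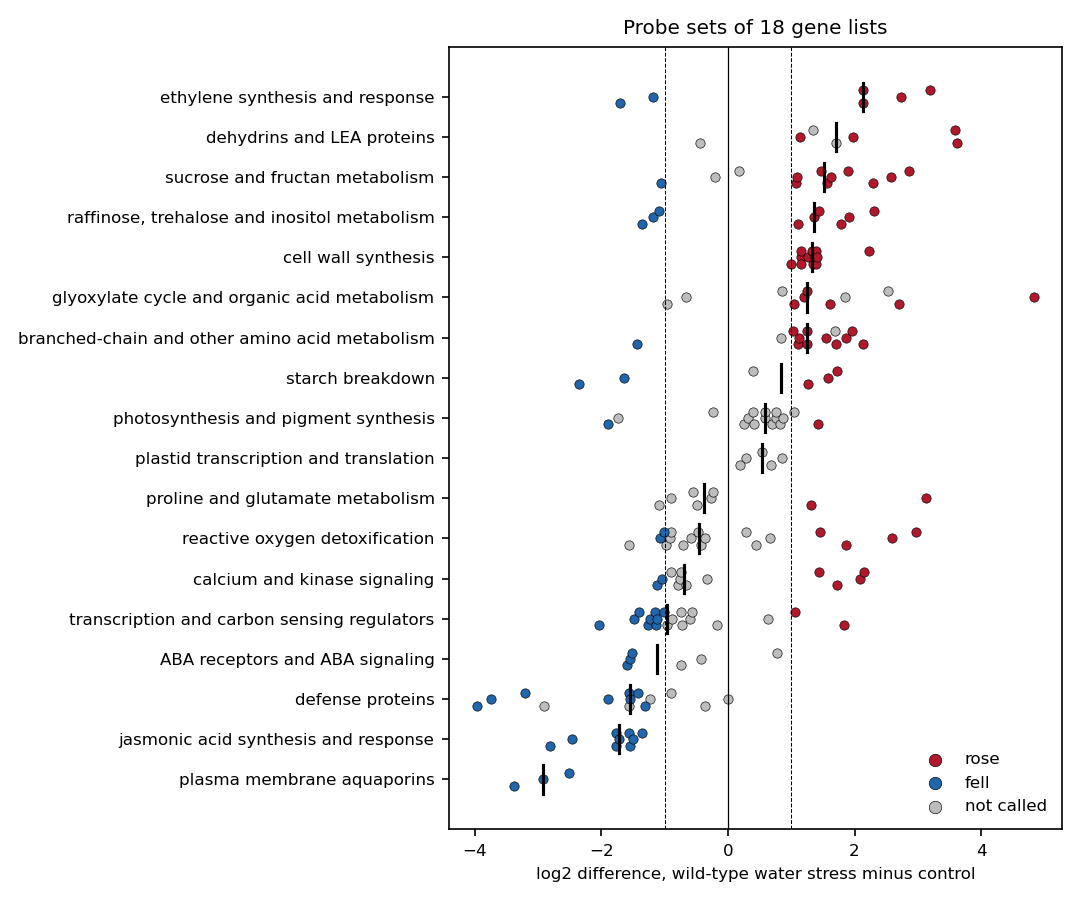
Log2 difference of wild-type water stress minus control (horizontal axis) for every kept probe set of the 18 lists (rows, ordered by median); red points rose, blue points fell, grey points were not called, black bars are medians and dashed lines mark 2-fold. The 3 aquaporin and the 9 jasmonic acid probe sets all fell, and the 12 cell wall probe sets all rose.

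The dehydrin RAB18 showed the widest rise among proteins that protect drying tissue. Its probe set Ta_29352_1_S1_at had 877, 2279 and 2216 on the stress arrays and 131, 149 and 120 on the control arrays, a difference of 3.62 (SE 0.42, adjusted p = 8e-05). The groups were far apart, with stress replicate 1 the lowest of the stressed arrays. Its other probe sets rose by 3.59 and 1.97. RD22, a protein known in Arabidopsis to be induced by drying and ABA, had 17525, 35407 and 20527 on the stress arrays and 14593, 9776 and 8453 on the control arrays, and rose by 1.13 (SE 0.25, adjusted p = 0.00659). It was under 2-fold without stress replicate 2 or without control replicate 3 (lowest difference 0.83).

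Other members of that list did not pass the test, and the list had 4 of 7 probe sets that rose and none that fell (median 1.71). The dehydrin WZY1-1 had 441, 331 and 936 on the stress arrays and 168.8, 123 and 190 on the control arrays (1.71, SE 0.66, adjusted p = 0.0823). A RAB protein, Ta_2638_1_S1_at, had 401, 893 and 1140 on the stress arrays and 352, 172 and 407 on the control arrays (1.35, SE 0.48, adjusted p = 0.0625). The groups did not overlap for WZY1-1, while for the RAB protein stress replicate 1 lay within the range of the controls. LEA1 stood at 155, 136 and 167 under stress and at 227, 158 and 248 under control (-0.44, adjusted p = 0.673).

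The study gives primers for some of these transcripts. The pairs for both uncalled dehydrin-type genes and for a pair of defense genes described below are printed because they name the stretch measured in the study's real-time PCR. The study reports that PCR for the mutant against the wild-type under control watering, not for water stress against control. The primers are written 5′ to 3′ with no part in capitals.
RAB protein, forward: ggcatcatggacaagatcaagga
RAB protein, reverse: actaggctcacgttgtatggtggaa
WZY1-1, forward: atggcacctacggacagcagggta
WZY1-1, reverse: atcggtgacatgcgtcccagtac
GLP2b, forward: ggtcagacccaccaatatcagatga
GLP2b, reverse: aactcaaccgtgtccttcacttgtg
Chitinase 3, forward: gctactgtgacctcctcggtgtca
Chitinase 3, reverse: ggtctatcgccacgccattgttac

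Both enzymes that make proline from glutamate rose, and the rest of the proline and glutamate list did not pass. P5CS2, the first and rate-limiting step, had 16485, 24779 and 23529 on the stress arrays and 2249, 2109 and 3046 on the control arrays (3.13, SE 0.32, adjusted p = 3.16e-05). P5CR, the step after it, had 1716, 2065 and 2262 under stress and 889, 810 and 719 under control (1.32, SE 0.14, adjusted p = 4.28e-05). No stress array overlapped a control array for either gene. Of 8 probe sets 2 rose and none fell (median -0.38). Glutamate decarboxylase GAD3, which makes gamma-aminobutyrate, had -0.23 and -0.49, and glutamate dehydrogenase GDH2 -0.27 (adjusted p = 0.494, 0.119 and 0.473). The others were a glutamate decarboxylase GAD (-1.10, adjusted p = 0.286), AO (-0.89) and GGT1 (-0.56).

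Of 13 probe sets of branched-chain and other amino acid metabolism 10 rose and 1 fell (median 1.24), among them enzymes of breakdown and of synthesis. ALDH7B4, an aldehyde dehydrogenase of lysine breakdown, had 2114, 1965 and 3062 on the stress arrays and 533, 612 and 465 on the control arrays (2.13, SE 0.25, adjusted p = 8.8e-05), and 1.95 on a further probe set. The transaminase PYD4 was even between replicates, with 5273, 5395 and 5281 on the stress arrays and 1549, 1206 and 1641 on the control arrays (1.87, SE 0.15, adjusted p = 6.01e-06). LKR/SDH, which starts the breakdown of lysine, had 2512, 1745 and 2043 under stress and 617, 625 and 664 under control (1.71, SE 0.15, adjusted p = 1.13e-05). All 3 genes had stress arrays well above every control array. The branched-chain keto acid dehydrogenase subunits BCKDHE1α and BCE2 rose by 1.55 and 1.24, the methylcrotonyl-CoA carboxylase subunits MCCA and MCCB of leucine breakdown by 1.12 and 1.10 (a second MCCA probe set had 0.83 and was under 2-fold), and, on the path that makes lysine, aspartate kinase AK3 by 1.24 and dihydrodipicolinate reductase crr1 by 1.03. Of these, crr1 was under 2-fold without stress replicate 2 or control replicate 2 (lowest 0.80), MCCA without control replicate 2 (0.90) and MCCB without stress replicate 3 (0.9964). The branched-chain aminotransferase BCAT3 had 1.70 (adjusted p = 0.167), although its stress arrays (338, 339 and 281) lay above its control arrays (117, 69.1 and 117). Threonine aldolase THA2 fell, with 99.2, 33.4 and 71.6 under stress and 180, 167 and 156 under control (-1.44, SE 0.36, adjusted p = 0.0127). Without stress replicate 2 the fall of THA2 was under 2-fold (-0.99).

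Most enzymes that release sugars from fructans and sucrose rose, while the enzymes that build fructans did not pass. Fructan 6-exohydrolase, which frees fructose from stored fructans, had 3375, 3031 and 2312 on the stress arrays and 365, 355 and 473 on the control arrays (2.86, SE 0.25, adjusted p = 1.13e-05), and 2.57 on a second probe set. Sucrose synthase SUS3, which splits sucrose, had 2489, 2688 and 2879 under stress and 512, 550 and 592 under control (2.28, SE 0.14, adjusted p = 9.79e-07), and SUS4 rose by 1.57. The SUS3 replicates lay close together in each group, and the groups differed 4.87-fold. A second SUS3 probe set rose by 1.89. The 3 probe sets of another fructan exohydrolase rose by 1.07 to 1.47, of which 2 were under 2-fold without stress replicate 2 (0.94 and 0.90). The invertase BFRUCT3, which splits sucrose as well, rose by 1.62. Among the enzymes that build fructans, sucrose:sucrose 1-fructosyltransferase, which joins the first fructose, had a difference of 0.17 (adjusted p = 0.652). The enzyme sucrose:fructan 6-fructosyltransferase, which lengthens the chain, had -0.20 (adjusted p = 0.651). In both of them stress replicate 3 was the lowest of the 6 arrays, at 1691 and 2742, and the other stress arrays were at or above the highest control array. The cell wall invertase CWINV2 fell (-1.06, adjusted p = 0.00121), though by under 2-fold without control replicate 2 (-0.94). Of 12 probe sets 9 rose and 1 fell (median 1.52).

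Genes of galactose and raffinose metabolism rose while trehalose phosphatases fell. The alpha-galactosidase AGAL2, which removes galactose from raffinose-type sugars, had 3690, 5541 and 5358 on the stress arrays and 1040, 962 and 889 on the control arrays (2.31, SE 0.15, adjusted p = 1.42e-06). SIP1, named by the study as a raffinose synthase, had 228, 259 and 255 under stress and 73.5, 33.8 and 114 under control (1.91, SE 0.37, adjusted p = 0.00257), and SIP2 rose by 1.11. The stress arrays of SIP1 were close together and its control arrays were more spread. Galactokinase GalAK, the inositol oxygenase MIOX1 and the trehalose phosphate synthase ATTPS6 rose by 1.79, 1.36 and 1.44. GalAK lost its call when any wild-type array but stress replicate 1 was left out (adjusted p up to 0.106). MIOX1 lost its call without stress replicate 2 or 3 or without control replicate 1 or 3 (adjusted p up to 0.075). Trehalose phosphate phosphatase TPPD had 816, 713 and 745 under stress and 1662, 2110 and 2054 under control (-1.35, SE 0.14, adjusted p = 3.39e-05), with -1.18 on its other probe set, and TPPF fell too (-1.09), but by under 2-fold without stress replicate 3 or control replicate 2. All 9 probe sets of the list were called, 6 that rose and 3 that fell (median 1.36).

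Starch breakdown was split between enzymes. The limit dextrinase ATLDA, which cuts the branches of starch, had 447, 678 and 585 on the stress arrays and 169.2, 188 and 156 on the control arrays (1.72, SE 0.19, adjusted p = 5.21e-05). The alpha-glucosidase AGLU1 and the alpha-amylase AMY1 rose by 1.58 and 1.27. The chloroplast beta-amylase CT-BMY, which frees maltose from leaf starch at night, had 150, 41.0 and 44.9 under stress and 322, 321 and 355 under control (-2.35, SE 0.40, adjusted p = 0.00109). Its other probe set had 428, 615 and 480 under stress and 1483, 1865 and 1393 under control (-1.64), so both fell with no overlap. The glucanotransferase DPE2 had 0.40, under 2-fold. Of 6 probe sets 3 rose and 2 fell (median 0.84).

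**Figure D3:**
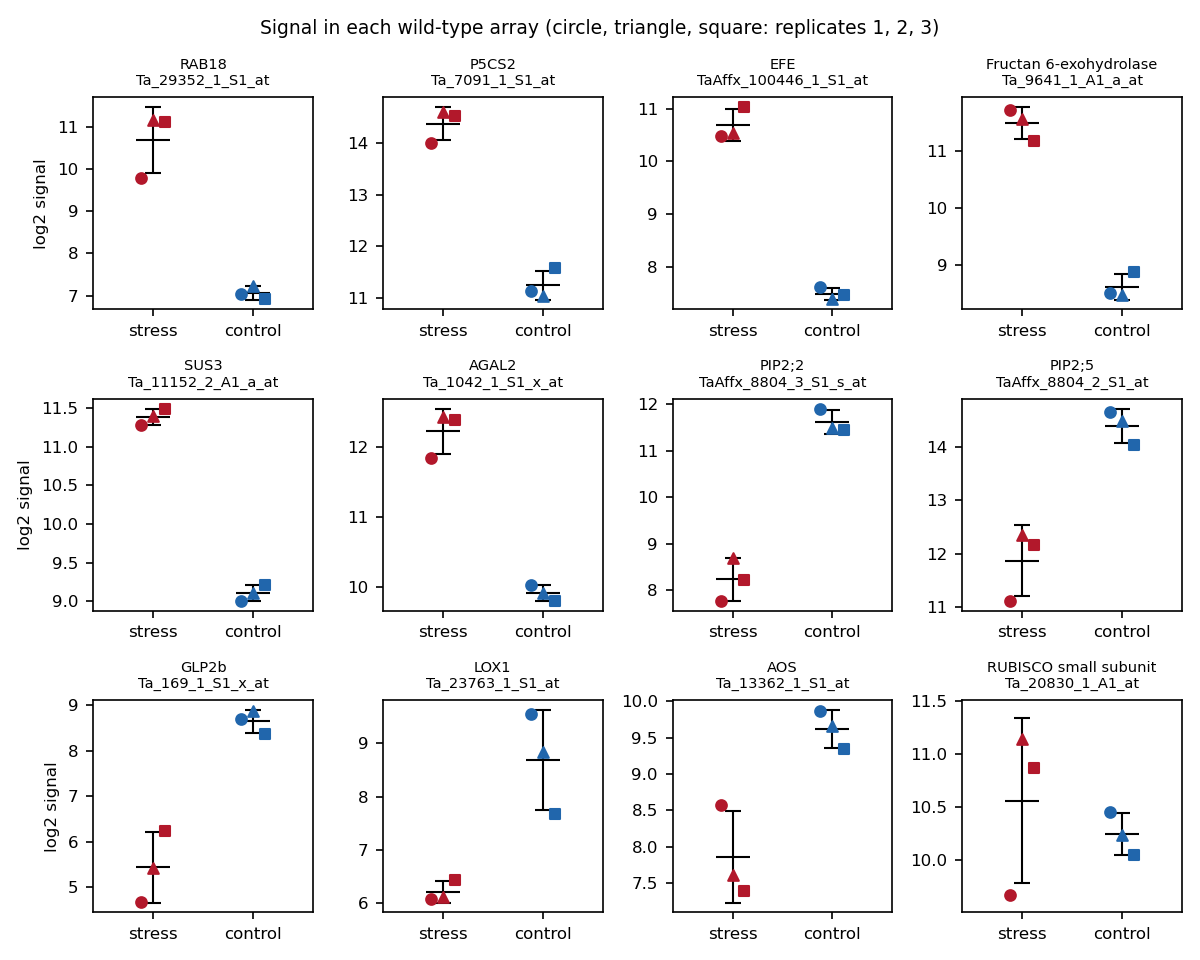
Log2 signal (vertical axes) of 12 probe sets in the 3 wild-type water stress arrays (red, left) and the 3 control arrays (blue, right); circle, triangle and square are replicates 1, 2 and 3, and bars are mean and SD. Groups do not overlap for 11 of the 12, and for the RUBISCO small subunit stress replicate 1 lies below every control array.

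All 12 probe sets of cell wall synthesis rose (median 1.33, range 1.003 to 2.22). IRX9, a glycosyltransferase of xylan synthesis, had 1641, 1903 and 1864 on the stress arrays and 399, 322 and 445 on the control arrays (2.22, SE 0.30, adjusted p = 0.000248). The cellulose synthase CESA1 had 2322, 2419 and 3053 under stress and 920, 995 and 1015 under control (1.40, SE 0.12, adjusted p = 1.14e-05), with 1.39 on its other probe set, and CESA3 rose by 1.26. For IRX9 and CESA1 the replicates of a group lay close together. The xyloglucan xylosyltransferase XT2 rose by 1.39, the cellulose synthase-like genes ATCSLC12 by 1.16 and ATCSLB02 by 1.15 and 1.16, and 3 probe sets of a xyloglucan:xyloglucosyl transferase, which cuts and rejoins wall polymers, by 1.32 to 1.38. Among these 3, Ta_13337_2_S1_x_at lost its call without stress replicate 1 or 3 or without control replicate 1 (adjusted p up to 0.0837). ATCSLB05 was at the threshold (1.003, adjusted p = 0.0271), with 860, 405 and 954 under stress and 393, 308 and 342 under control, and lost its call without stress replicate 1 or 3 or without control replicate 2 or 3 (lowest difference 0.77). Between 10 and 12 of the list rose with 1 wild-type array left out.

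Both enzymes particular to the glyoxylate cycle, which turns the products of fat breakdown into sugar precursors, rose, isocitrate lyase on 1 of its 3 probe sets. Isocitrate lyase (ICL), the entry enzyme, had 492, 380 and 1910 on the stress arrays and 5.4, 34.6 and 82.1 on the control arrays (adjusted p = 0.00806, at least 11.6-fold with low signals raised to the array median). Its other probe sets had 2.53 and 1.84 (adjusted p = 0.0899 and 0.0691), with no overlap of the groups. Malate synthase (MLS), the next enzyme, had 559, 290 and 772 under stress and 92.9, 73.2 and 65.7 under control (2.71, SE 0.60, adjusted p = 0.00655). In all 4 probe sets stress replicate 3 was the highest array, and for MLS, the called ICL probe set and 1 of the others stress replicate 2 was the lowest stressed array. PCK1, which starts sugar synthesis from oxaloacetate, rose by 1.20 and 1.05, the malic enzyme NADP-ME3 by 1.25, and G6PD4 of the pentose phosphate pathway by 1.61. Both PCK1 probe sets were under 2-fold without stress replicate 2 (0.9991 and 0.83), the second also without control replicate 2. The pyruvate decarboxylases PDC2 (-0.97) and Ta_13281_1_S1_at (-0.67) and the malic enzyme NADP-ME4 (0.86) were under 2-fold. Of 11 probe sets 6 rose and none fell (median 1.25).

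The 3 plasma membrane aquaporin probe sets of the study's tables all fell, and aquaporins without a name here were not examined. PIP2;2 on probe set TaAffx_8804_3_S1_s_at had 218, 418 and 301 on the stress arrays and 3846, 2873 and 2787.7 on the control arrays (-3.38, SE 0.29, adjusted p = 9.32e-06). On TaAffx_8804_1_S1_s_at PIP2;2 had 2228, 4056 and 2877 under stress and 24477, 21947 and 21431 under control, 7.62-fold lower under stress (-2.93, SE 0.17, adjusted p = 6.97e-07). PIP2;5 had 2217, 5210 and 4582 under stress and 25733, 22901 and 16685 under control (-2.51, SE 0.27, adjusted p = 4.71e-05). Stress replicate 1 was the lowest and replicate 2 the highest of the stressed arrays in all 3, and the groups did not overlap. Their names share a stem on the array, so the probe sets may share target sequence, and they kept their call with any 1 array left out.

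The probe sets of the ABA receptors RCAR10 and RCAR8 fell under stress. They differ only in the suffix of their array name (Ta_21082_2_S1_s_at and Ta_21082_2_S1_at), so they may measure the same transcript and are not separate evidence. RCAR10, a soluble receptor that binds ABA and inhibits protein phosphatases 2C, had 659, 564 and 931 on the stress arrays and 2033, 1981 and 2342 on the control arrays (-1.59, SE 0.19, adjusted p = 0.000118). RCAR8 had 1136, 1059 and 2017 under stress and 3952, 3863 and 3952 under control (-1.55, SE 0.23, adjusted p = 0.000495). In both, stress replicate 3 was the highest stressed array and still below every control array. A phosphatase PP2C fell on TaAffx_16090_1_S1_at (-1.51) and had -0.43 and -0.74 on 2 further probe sets that were not called. The homeobox gene ATHB-6 had 0.78 (adjusted p = 0.115). Of 6 probe sets none rose and 3 fell (median -1.13).

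The enzymes of ethylene synthesis moved in opposite directions. EFE, the ACC oxidase that makes ethylene in the last step, had 1432, 1484 and 2089 on the stress arrays and 196, 168 and 177 on the control arrays on its probe set TaAffx_100446_1_S1_at (3.19, SE 0.60, adjusted p = 0.00239). Its other 3 probe sets rose by 2.13 to 2.74. ACS2, the ACC synthase of the step before, had 78.8, 87.5 and 104 under stress and 259, 320 and 298 under control (-1.70, SE 0.48, adjusted p = 0.0231). The groups of ACS2 did not overlap, but its call was lost when any wild-type array but stress replicate 3 was left out (adjusted p up to 0.0762). The ethylene response factor ERF4, a repressor in Arabidopsis, had 287, 392 and 256 under stress and 635, 731 and 717 under control (-1.18, SE 0.18, adjusted p = 0.000674). Of the 6 ethylene probe sets 4 rose and 2 fell (median 2.13).

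All 9 probe sets of the list of jasmonic acid synthesis and response fell (median -1.73, range -2.82 to -1.35). Whether LOX1, OPR1 and OPR2 act in jasmonic acid synthesis in wheat was not tested. Lipoxygenase LOX1, which oxidizes fatty acids, had 67.8, 69.1 and 87.2 on the stress arrays and 745, 455 and 205 on the control arrays (-2.47, SE 0.38, adjusted p = 0.000563). The stress arrays were alike, and the control arrays were far more spread. Allene oxide synthase (AOS), an enzyme of jasmonic acid synthesis, had 381, 195 and 168 under stress and 930, 806 and 650 under control (-1.76, SE 0.40, adjusted p = 0.00717). The oxophytodienoate reductase OPR2 had 949, 457 and 1112 under stress and 2555, 2233 and 2179 under control (-1.56, SE 0.25, adjusted p = 0.000777), and the 5 probe sets of OPR1 fell with differences of -1.76 to -1.35. In OPR2 and in all 5 of OPR1, stress replicate 2 was the lowest array, and without it 7 of the 9 jasmonic acid probe sets fell. The OPR1 probe set TaAffx_128684_1_S1_at also lost its call when any 1 control array was left out (adjusted p up to 0.12). JAZ11, a repressor of jasmonate responses, had 18.3, 65.6 and 78.7 under stress and 217, 180 and 849 under control (adjusted p = 0.0249). It fell at least 5.02-fold with low signals raised to the array median, and its call was lost without stress replicate 1 or without control replicate 3.

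Defense proteins fell or did not pass, and none rose. The germin-like protein GLP2b, a cell wall protein of barley and wheat leaves, had 25.4, 42.7 and 74.7 on the stress arrays and 411, 467 and 332 on the control arrays (adjusted p = 0.000103, at least 6.61-fold lower under stress with low signals raised to the array median). A beta-glucanase had 8.6, 7.2 and 19.7 under stress and 168, 164 and 107 under control (adjusted p = 0.000524, at least 2.62-fold). A pathogenesis-related protein precursor had 39.0, 3.8 and 39.4 under stress and 285, 344 and 227 under control (adjusted p = 0.0114, at least 5.15-fold). These stressed signals lay mostly below the median of their arrays, so the size of these falls is not firm. The lower bounds are estimates that carry no margin of error. Chitinase 3, which cuts fungal chitin, had clear signals in both groups, 470, 386 and 330 under stress and 899, 1700 and 755 under control (-1.42, SE 0.33, adjusted p = 0.0076). Blufensin1, a small peptide known from barley (-1.57), the peroxidase POX10 (-1.55) and agmatine coumaroyltransferase ACT-1 (-1.31) also fell, ACT-1 not without stress replicate 1 or without control replicate 1 or 2 (adjusted p up to 0.0832). Oxalate oxidase fell at least 2.82-fold (adjusted p = 0.0315), but not without stress replicate 2 or 3 or without control replicate 2 or 3 (adjusted p up to 0.144). Chitinase CHT2 (-0.91, adjusted p = 0.134) and the beta-1,3-glucanase (-1.56, adjusted p = 0.172) did not pass. Neither did naringenin 2-oxoglutarate 3-dioxygenase of flavonoid synthesis (-2.91, adjusted p = 0.0587), a second POX10 probe set (-1.24) or glucan endo-1,3-beta-glucosidase GII (0.01 and -0.36). Of 14 probe sets 8 fell (median -1.56).

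Reactive oxygen genes were mixed. A glutaredoxin had 125.3, 249 and 141 on the stress arrays and 36.2, 51.6 and 4.9 on the control arrays (adjusted p = 0.013, at least 3.04-fold). A peroxidase, TaAffx_613_2_A1_x_at, had 149, 156 and 252 under stress and 56.7, 22.4 and 20.9 under control (adjusted p = 0.0105, at least 3.27-fold). The control signals of both lay near or below the array median. Peroxiredoxin type 2 was measured well above it, with 987, 1314 and 1265 under stress and 433, 441 and 415 under control (1.46, SE 0.14, adjusted p = 1.82e-05). RBOHD, an oxidase that makes superoxide at the plasma membrane, had 129, 132 and 200 under stress and 83.4, 25.2 and 33.5 under control, a rise of at least 2.40-fold (adjusted p = 0.0165) whose call was lost without stress replicate 3 or without control replicate 2 or 3. The call of the glutaredoxin was lost without stress replicate 2 (adjusted p = 0.0562) and that of the peroxidase without stress replicate 3 (adjusted p = 0.0508). The glutathione transferases ATGSTU19 (-1.01) and ATGSTF13 (-1.07) fell, at the edge of 2-fold, and a second ATGSTF13 probe set had -0.91. Both calls were lost without stress replicate 3, ATGSTU19 also without control replicate 1 and ATGSTF13 without control replicate 2. Ascorbate peroxidase APX1 had -0.48 and the thylakoid form TAPX 0.44 and 0.66, with adjusted p of 0.161, 0.132 and 0.06. Also uncalled were APX4 (0.28), ERD9 (-0.71), ATGLX1 (-0.43), a glyoxalase I family protein (-0.59 and -0.36) and the other putative peroxidases (-1.56 to -0.90). Of 18 kept probe sets 4 rose and 2 fell (median -0.45).

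Of the 4 kept CIPK kinases, which CBL calcium sensors bind, 3 rose, while the sensor CBL1 fell, and a further one, CIPK2, did not pass the filter on low signals. CIPK3 had 1750, 1304 and 1730 on the stress arrays and 312, 441 and 331 on the control arrays (2.15, SE 0.28, adjusted p = 0.000216), with 2.08 on its other probe set. CIPK10 and CIPK6 rose by 1.73 and 1.43, and CIPK23 had -0.34 and -0.74 and did not pass. The calcium sensor CBL1 had 1349, 757 and 1246 under stress and 2449, 2459 and 2162 under control (-1.12, SE 0.24, adjusted p = 0.00516), and both of its probe sets were under 2-fold without stress replicate 2, the second (-1.05) also without control replicate 1. The kinases MAPK3 (-0.75), MKK6 (-0.80) and CRK29 (-0.90 and -0.66) were under 2-fold. Of 12 kept probe sets 4 rose and 2 fell (median -0.70).

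Most WRKY transcription factors of the study's tables, regulators of defense and senescence, fell, and WRKY factors without a name here were not examined. WRKY41 had 350, 354 and 403 on the stress arrays and 953, 941 and 1027 on the control arrays (-1.40, SE 0.14, adjusted p = 2.86e-05). WRKY31 had 812, 692 and 730 under stress and 1703, 1508 and 1707 under control (-1.14, SE 0.12, adjusted p = 4.21e-05). Both had groups that were tight and far apart. WRKY40 fell on its 3 probe sets (-1.49 to -1.23) and WRKY70 fell on 1 (-1.13), and 2 of the WRKY40 calls were lost without stress replicate 2 and that of WRKY70 without stress replicate 3 (-0.9961). WRKY33 had the widest difference (-2.04), with 468, 163 and 359 under stress and 1143, 1143 and 1461 under control, but also a wide SE (0.65, adjusted p = 0.0388), and its call was lost when any wild-type array but stress replicate 1 was left out (adjusted p up to 0.144). The zinc finger STZ (-1.15) and 1 of the 2 probe sets of RAP2.8 (-1.01) fell, RAP2.8 by under 2-fold without stress replicate 2 or control replicate 1 or 2. The WRKY45-like factor (-0.57) and 3 probe sets of BZIP63, a factor of carbon starvation signaling in Arabidopsis (-0.89 to -0.60), were under 2-fold, as were ZFP23 (-0.97), SAL1 (-0.74) and PI3P5K (0.64). Of the AP2 factors, RAP2.7 had 809, 882 and 1565 under stress and 265, 299 and 315 under control and rose by 1.83 (adjusted p = 0.000259), and RAP2.12 rose by 1.06. Of 19 probe sets 2 rose and 9 fell (median -0.97), and between 5 and 9 fell with 1 wild-type array left out, 5 of them without stress replicate 2.

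Photosynthesis genes, markers of green tissue and not of the flag leaf alone, were measured on all arrays and mostly did not pass. The light-harvesting protein LHB1B2 on Ta_3249_3_A1_at had 4585, 11612 and 8797 on the stress arrays and 6455, 6753 and 6413 on the control arrays (0.25, SE 0.26, adjusted p = 0.534). The RUBISCO small subunit had 815, 2254 and 1867 under stress and 1399, 1204 and 1059 under control (0.31, SE 0.36, adjusted p = 0.576). In both, stress replicate 1 lay below every control array and replicates 2 and 3 above every one. The other 4 probe sets of LHB1B2 had differences of 0.41 to 1.05, none called, the widest with 103, 212 and 201 under stress and 88.7, 83.9 and 66.1 under control (adjusted p = 0.141). The RUBISCO large subunit had -0.24 (adjusted p = 0.795), and HEMA1, of chlorophyll synthesis, had 0.75 and 0.77 with adjusted p of 0.0258 and 0.011, under 2-fold. ELIP1, a light stress protein of the thylakoid, fell on one probe set, with 1634, 1911 and 618 under stress and 4023, 3651 and 6840 under control (-1.90, SE 0.46, adjusted p = 0.0103), and had -1.74 (adjusted p = 0.0711) on the other. MVA1, of isoprenoid synthesis, rose by 1.43. The carotenoid enzyme PSY (0.40), DXS of plastid isoprenoid synthesis (0.59) and ATPD of the chloroplast ATP synthase (0.59 and 0.69) were under 2-fold. Of 16 probe sets 1 rose and 1 fell (median 0.59). None of 5 probe sets of plastid transcription and translation was called (median 0.54, range 0.19 to 0.85): PTAC16 had 0.29, the RNA polymerase B subunit 0.54, both parts of its beta' subunit 0.19 and 0.85, and ribosomal protein S2 0.68. Markers of grain, anther and root were not tested, since none of the 33 keyword lists drawn up for such markers and for further pathways had 3 kept members with a gene symbol in the annotation.

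Genes outside these groups included the papain-like cysteine proteinase PAP-14, with 2713, 1276 and 3626 on the stress arrays and 341, 254 and 569 on the control arrays (2.66, SE 0.45, adjusted p = 0.00112). An endonuclease had 2181.6, 1268 and 3221 under stress and 297, 292 and 632 under control (2.45, SE 0.52, adjusted p = 0.00485). In both genes, which act in protein and nucleic acid breakdown, replicate 3 was the highest array of each group and replicate 2 the lowest. Peptide chain release factor ERF1, of translation, rose by 1.82. The sterol oxidase SMO1-2 was called with groups that overlapped (294, 2156 and 750 under stress and 209, 295 and 185 under control, adjusted p = 0.0424), and kept the call with stress replicate 1 left out but with no other wild-type array left out. An adhesive/proline-rich protein had 81.1, 26.7 and 55.1 under stress and 537, 459 and 378 under control, a fall of at least 7.08-fold (adjusted p = 8.93e-05). Of the rest, Ta_3647_1_S1_at, an uncharacterized protein, rose by 1.42 (adjusted p = 0.0132) but not without stress replicate 2 or control replicate 1, and the unnamed Ta_20188_1_S1_a_at and TaAffx_83636_1_S1_at fell at least 3.37-fold and 4.59-fold (adjusted p = 0.00188 and 0.00116). TdS40 (-0.91), the progesterone reductase (-0.54), GH3.2 (-0.48), TaAffx_98744_1_S1_at (-2.29, adjusted p = 0.0501), Ta_7543_1_S1_at (-0.10) and Ta_3830_1_S1_a_at with its 2 neighbours (0.09 to 0.77) were not called. Of 18 kept probe sets of this mixed group 6 rose and 3 fell (median 0.04). Among the 8 kept probe sets named by the array annotation alone, catalase CAT1, cytochrome subunit petC, GAPN, TBP1 and 2 probe sets of SAHH had differences between -0.15 and 0.08, the phosphatase FBP had -0.29 (adjusted p = 0.0293) and tubulin TUBA stood at 0.63 (adjusted p = 0.000564), under 2-fold.

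Probe sets that share a name mostly had the same sign. Of 37 names with several kept probe sets, 35 had differences of a single sign, and in 18 every probe set was called in a single direction. Most of these names come from the study's tables, whose probe sets were chosen on these same arrays, so their agreement is no independent evidence. No such share over all kept probe sets was computed. The exceptions were glucan endo-1,3-beta-glucosidase GII and the putative peroxidases, a label that may cover different genes. Such probe sets can share transcripts, and near-identical gene copies of durum wheat may hybridize to the same probes, so they are not independent measurements.

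Whether the response of the wild-type differed from that of the mutant was tested as an interaction term, and 39 of 24590 probe sets passed (0.159%). The wild-type difference was the higher in 30 of them and the lower in 9, and 15 of the 39 were wild-type changes. Of the 1787 wild-type changes, 1738 had the same sign in MD-597, and the share of the same sign over all kept probe sets was not computed. In MD-597 1110 were called in the same direction, 395 that rose and 715 that fell. Over all 24590 kept probe sets 841 rose and 1350 fell there, and 8.91% were called in either direction. Another 673 had no call in MD-597, and the interaction itself passed for 13 of these. The count of 39 was not steady: it was 0 without wild-type stress replicate 3, when any 1 of the wild-type controls was left out, without mutant stress replicate 2 or without mutant control replicate 1 or 3, 106 without wild-type stress replicate 2 and 141 without mutant stress replicate 3.

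RAP2.12 was the named gene that rose in the wild-type with a called difference from the mutant. That call and the other 2 below were lost with the replicate block and without an intensity trend, where limma called 0 probe sets (659 at unadjusted p under 0.05 with 2-fold in each). It is known in Arabidopsis as a regulator of the response to low oxygen. It had 9376, 8714 and 10342 on the wild-type stress arrays and 4583, 4584 and 4477 on the wild-type control arrays, a difference of 1.06 (SE 0.10, adjusted p = 2.01e-05), against -0.11 in the mutant, and the wild-type response minus that of the mutant was 1.16 (SE 0.14, adjusted p = 0.0335). Without wild-type stress replicate 3 its wild-type rise was just under 2-fold (0.991). BZIP63 on TaAffx_18447_1_S1_at had -0.73 in the wild-type, against -1.88 in MD-597 (1.15, SE 0.18, adjusted p = 0.0342). Its 2 other probe sets gave 1.22 and 0.9999 (adjusted p = 0.116 and 0.0519). An unnamed probe set of the study's tables, Ta_22572_1_S1_at, had -0.01 in the wild-type, against -1.65 in MD-597 (1.64, SE 0.30, adjusted p = 0.0459).

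**Figure D4:**
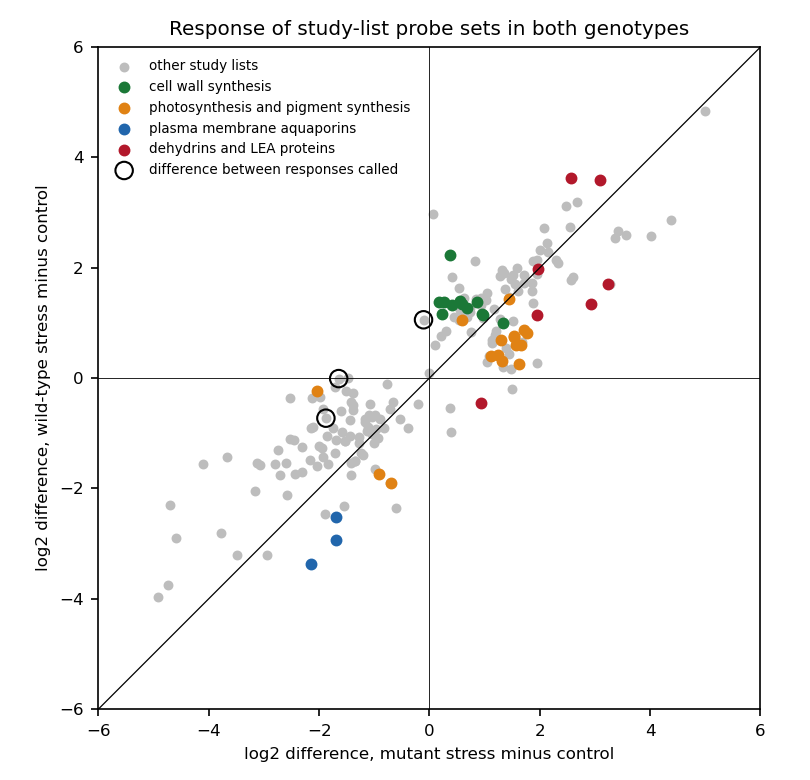
Log2 difference of water stress minus control in the wild-type (vertical axis) against that in the mutant (horizontal axis) for the 204 kept probe sets of the study's tables; the line marks equal responses and circles mark the 3 with a called difference between the responses. The cell wall probe sets lie mostly above the line and the photosynthesis probe sets mostly below it, and no member of either group was called for that difference.

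Lists with unlike counts in the genotypes held few or no tested differences. The 12 cell wall probe sets had a median of 1.33 in wild-type leaves and 0.58 in MD-597 leaves, where 1 rose, and none passed the interaction test, with IRX9 at 1.84 (SE 0.42, adjusted p = 0.09) and ATCSLC12 at 0.94 (adjusted p = 0.06). The 16 photosynthesis probe sets had a median of 0.59 in wild-type leaves, where 1 rose, and 1.37 in MD-597 leaves, where 12 rose, and none passed either. For the aquaporin PIP2;2 on TaAffx_8804_1_S1_s_at the difference was -2.93 in the wild-type, against -1.69 in MD-597 (-1.24, SE 0.24, adjusted p = 0.0519). For fructan 6-exohydrolase it was 2.86 in the wild-type, against 4.38 in MD-597 (-1.51, SE 0.35, adjusted p = 0.096). The study placed many of these probe sets on its lists because they were called in a single genotype, so their unlike counts are no independent evidence.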

How the data were processed

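Flag leaf RNA of 12 samples was hybridized to 1 Affymetrix Wheat Genome Array each. The authors deposited MAS5 signals, linear intensities that were scaled so that every array has a 2% trimmed mean of 500.3; the version of MAS5 was not given in the sources used here. The study's own tests used RMA values and detection calls, which the table does not hold, so the percentile filter stood in for Present calls. Intensities were log2 transformed with no offset, 111 control probe sets were left out, 3 reporter gene probe sets passed the filter, and 4 group means were fitted to all 12 arrays with limma 3.58.1 (intensity trend, Benjamini-Hochberg adjustment) in R 4.3.3. The model was tested on simulated data. The number of arrays limits the precision.

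Gene names came from the study's tables and from an annotation in which 1254 of 1273 symbols are locus numbers. Named were the 15 named probe sets with the widest non-overlapping change in each direction, the 2 widest without a name, and every kept probe set of the study's tables, in general 1 per gene with the range of its others. Members and lists were chosen with earlier results of these data known. Signals under an array's median were raised to it for lower bounds. Such a bound, given as at least so many fold, compares group means and carries no margin of error. The adjusted p beside it tests the signals that were not raised. Alternatives covered normalization, filters, offset, variance trend, arrays fitted, tests, thresholds, replicate block, cross-hybridizing probe sets, array weights and each array left out. Figures used matplotlib 3.10.9.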

Additional observations from a re-analysis of the deposited data

Results flagged for a closer look

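The difference between the wild-type and mutant responses passed the interaction test for 39 probe sets, which brought it up for a closer look. Among probe sets of the study's tables it passed for 3, with wild-type minus mutant responses of 1.64 for Ta_22572_1_S1_at, 1.15 for BZIP63 (TaAffx_18447_1_S1_at) and 1.16 for RAP2.12 on the log2 scale. Groups of 3 arrays are too small for the check of single outlying arrays.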

How the results depend on the processing

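Every one of the 126 wild-type changes described one by one, 120 of them with a gene name, kept its sign under every alternative that gave it a value (3233 values, 3004 of them called). The kept sign is no evidence of robustness. Several alternatives leave the difference itself unchanged, and where groups do not overlap, leaving out 1 array cannot turn the sign. Of the 126, 90 kept their call with any 1 wild-type array left out. By the methods' t-test (Welch) with adjustment, run here on MAS5 signals, the count of 1787 changed probe sets (756 that rose, 1031 that fell) was 213 (117 and 96). By that test 18 probe sets of the study's tables (13 rose, 5 fell) and 4 of the 30 widest named changes passed. With no fold threshold the count by limma was 5591 (2865 and 2726). Of the 30 widest named changes 19 were called without _x_at and _s_at probe sets, since the others were left out, and 26 to 30 with 1 array left out. Leaving out 1 of the 12 arrays gave 1565 to 1932 changed probe sets (679 to 806 that rose, 850 to 1138 that fell), and without wild-type water stress replicate 2 there were 1578, of which 1410 had been called with all arrays.

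The 39 called differences between the responses became 19 with no filter, 68 with no fold threshold, 671 at unadjusted p under 0.05 with 2-fold, 364 with array quality weights, and 0 by limma without an intensity trend, where 659 passed at unadjusted p under 0.05 with 2-fold. With 1 array left out limma called 0 to 141, and 623 to 1055 passed at unadjusted p. No pairing by replicate number was seen between the wild-type stress and wild-type control arrays. Deviations of same-numbered arrays correlated at -0.04, -0.06 and -0.06, and 0 of 3 stress arrays correlated best with their own number. Pairing of wild-type with mutant arrays of the same treatment, whose genotypes were subplots of a watering main plot, was not tested. The replicate block gave 1734 changed probe sets (740 rose, 994 fell) and 0 interaction calls (659 at unadjusted p under 0.05 with 2-fold). The t-test and the fit of the wild-type arrays alone give no interaction. Signals near the array median limit 272 of the changes. The cause of these shifts was not tested.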
